A study of Drosophila melanogaster with 2 samples.

Results

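The genes described here are 10 regulators of heart and mesoderm formation in the *Drosophila* embryo, *tin*, *pnr*, *Hand*, *svp*, *bap*, *Mef2*, *htl*, *twi*, *tup* and *zfh1*. They were chosen by name, because the heart is a tissue in which *mid* acts, with earlier results of these data known. A probe set counted as a gene's own where the annotation of the array gave it that single symbol. By this rule 8 of the 10 genes had a probe set, 10 probe sets in all of 14010 on the array, with a pair each for *svp* and *tup*. *tin* and *Mef2* were not analysed here.

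Whole-embryo RNA of 2 genotypes was compared, with 1 Affymetrix array each. The control was *yw*, a laboratory stock named for its mutations of the pigmentation genes *yellow* and *white*. The other embryos were homozygous for *mid*, told apart from heterozygotes by a CyOact-GFP balancer chromosome. The *mid* allele on the array is not named in the labels, and the Methods give heterozygous *mid* embryos as the control where the labels give *yw*. Eggs were left for 16 h at 25 °C before RNA was extracted, so both arrays hold mixtures of all embryonic tissues. In such RNA, fewer cells of a type and less transcript per cell cannot be told apart, and neither can the stock background, the exact age of the embryos and the loss of *mid*.

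Midline (Mid), the fly homolog of vertebrate Tbx20, is a T-box factor that acts in cardioblasts, the contractile cells of the heart tube. The heart forms from the dorsal mesoderm. Twist (Twi), a basic helix-loop-helix factor, specifies the mesoderm, and Heartless (Htl), an FGF receptor, drives its spreading under the ectoderm. Tinman (Tin) is then kept on in the dorsal mesoderm, where it acts with the GATA factor Pannier (Pnr) in the cardiac lineage, while Bagpipe (Bap) directs the neighbouring cells to visceral mesoderm. Hand, the LIM-homeodomain factor Tailup (Tup) and the nuclear receptor Seven-up (Svp) act later in heart cells, and Mef2 is required for muscle differentiation throughout the mesoderm. Zfh1, a zinc-finger homeodomain factor, is found in the early mesoderm, in heart-associated cells, in blood cells and in motor neurons. Most of these factors have other sites of expression, such as the dorsal ectoderm for *pnr*, the nervous system for *svp*, *tup* and *zfh1*, and precursors of adult muscle for *twi*.

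The deposited MAS5 signals were on different scales, their medians being 150.2 for *yw* and 43.3 for *mid*. Signals below are therefore given after the *mid* array was multiplied by 3.46 to bring the medians together. A floor of 97.6, the 40th percentile of both arrays pooled, stands for dim signal, and where 1 of the arrays is at the floor the ratio is only a bound. The floor is no detection call, as 2 of 8 control probe sets for mouse or yeast transcripts exceeded it on each array, reaching 121 in *yw* and 135 in *mid*. Between probe sets of the same gene, log2 ratios varied with an SD of 0.53 over 287 genes. With 1 array per genotype there is no replicate error and no p-value, and genes were called by size alone, at more than 2-fold.

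Of the 8 genes, *twi* was more than 2-fold higher in the *mid* embryos and none was more than 2-fold lower. *zfh1* went the other way and stopped just short of the call. *bap* was moderately higher, and *svp*, *htl* and *tup* had nearly equal signals in both genotypes. *pnr* had only a small bound, and *Hand* was at the floor on both arrays. Thus 7 of the 8 genes were measured, meaning above the floor on at least 1 array, with 1 called higher and 0 called lower. Over all 7687 measured genes of the array, 5.66% were called higher and 4.53% lower, and 1 call among 7 genes is too few to set against these shares. The median log2 ratio of the 7 genes was -0.11, against 0.06 over all measured genes.

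**Figure D1:**
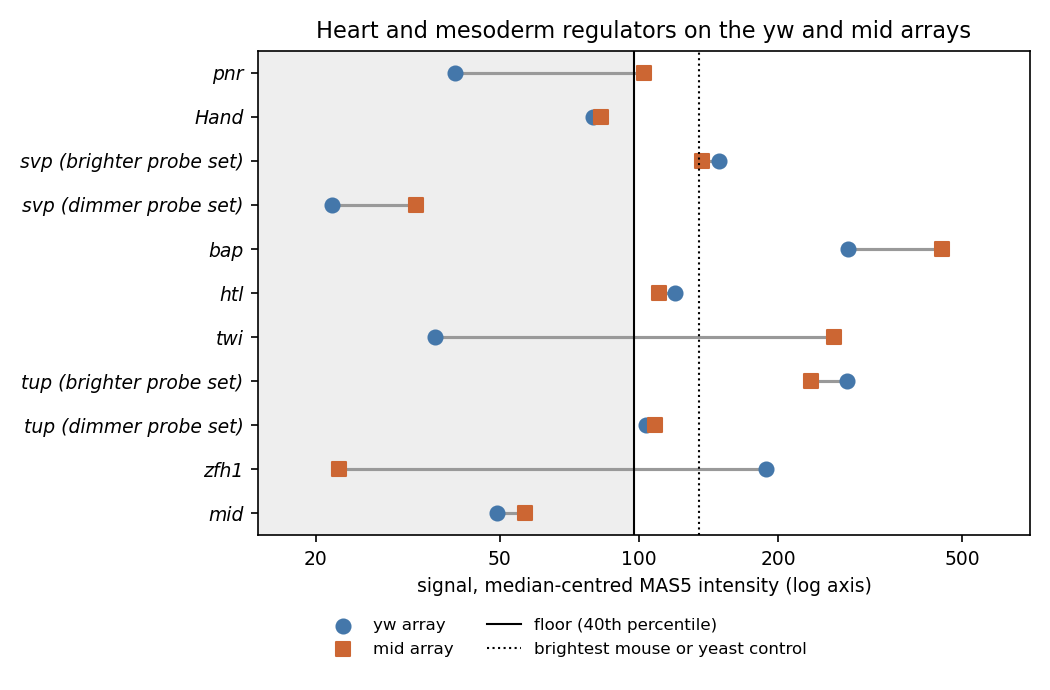
Signal of each probe set on the *yw* array (circles) and the *mid* array (squares), as median-centred MAS5 intensity on a log axis, with the floor of 97.6 (solid line, grey below) and the brightest control for another organism at 135 (dotted line). *twi* and *zfh1* cross the floor in opposite directions, while *svp*, *tup* and *htl* lie close together on both arrays and *mid* is below the floor on both.

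*twi* read 36.2 in *yw* and 264 in *mid*. The *yw* value lay under the floor, so the ratio was at least 2.7-fold, and without any floor it was 7.29-fold (2.87 on the log2 scale). Among all probe sets, *twi* stood at percentile 21.3 in *yw* and at percentile 62.8 in *mid*. The difference in percentile was as large and in the same direction for 24 of 10845 named genes (0.221%), *twi* included. Neither a scaling factor nor a floor enters this ranking. Genes that already stood high in *yw* could not rise so far, so the share overstates how rare such a rise is. Even the deposited values, in which the *mid* array is dimmer for most genes, had *twi* brighter in *mid*, at 76.2 against 36.2. That held for 414 named genes (3.82%), and *twi* was the only one of the 8 among them. The call itself rested on how low signals are treated. Among the 603 genes at the floor in *yw* alone, as *twi* was, 16.4% were called higher. With the floor raised to the brightest mouse or yeast control, the bound for *twi* was 0.97 on the log2 scale, no longer a call, and with a floor at the 60th percentile it was 0.21.

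*zfh1* read 189 in *yw* and 22.4 in *mid*, where it was under the floor. The bound was 1.93-fold lower in *mid*, a log2 ratio of -0.95, and without a floor the ratio was 8.4-fold (-3.07 on the log2 scale). *zfh1* stood at percentile 55.6 in *yw* and at percentile 15.6 in *mid*, and for 58 of 10845 genes (0.535%) the percentile was lower in *mid* by at least as much. This share also counts genes that stood too low in *yw* to fall so far. It was called lower with a floor at the 20th percentile, with no floor, after scaling on the spiked controls and with an equal mean of the central values. Among the 710 genes at the floor in *mid* alone, 16.8% were called lower. *zfh1* and *twi*, which both have sites of expression other than the early mesoderm, thus differed in opposite directions, each by a single probe set.

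*bap*, an NK homeodomain gene of the visceral mesoderm, was well above the floor on both arrays. It read 284 in *yw* and 451 in *mid*, which is 1.59-fold higher or 0.67 on the log2 scale. This is larger than the SD of 0.53 between probe sets of a gene and below the 2-fold call. With the shift of the median of the measured genes removed, the value was between 0.64 and 0.68 under the other scalings, apart from 0.46 with values as deposited. For a scaling by a constant factor this removal largely undoes the scaling, so the value could hardly move. Without the removal the ratio was smaller than that SD with the spiked controls, where the median shifts by -0.30. The value did not change with the floor, as both signals lay above every floor used.

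The cardiac factors with signal on both arrays differed little. For *tup*, signals of the brighter probe set were 282 and 236 (log2 ratio -0.26). Its other probe set read 103 and 108, a log2 ratio of 0.07, so the pair did not share a direction and differed by less than the SD. For *svp* the brighter probe set read 149 and 137 (log2 ratio -0.12), the latter close to the brightest yeast control at 135. The other *svp* probe set, with 21.6 and 32.9, gave no ratio. *htl*, which encodes the FGF receptor, read 120 and 111 (log2 ratio -0.11), signals just below the brightest yeast control. None of these 3 genes had a ratio beyond the SD between probe sets.

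For the remaining cardiac genes the arrays gave a bound or no ratio. *pnr* read 39.9 in *yw*, under the floor, and 103 in *mid*, just over it, with a bound of 1.05-fold higher in *mid*. Without a floor, or with one at the 20th percentile, *pnr* was 2.57-fold higher and called, but its *mid* signal was below the brightest yeast control. *Hand* read 79.7 and 82.9, and no direction is given. *mid* itself was under the floor in both genotypes, with 49.3 and 56.8, so its probe set does not check the genotype.

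**Figure D2:**
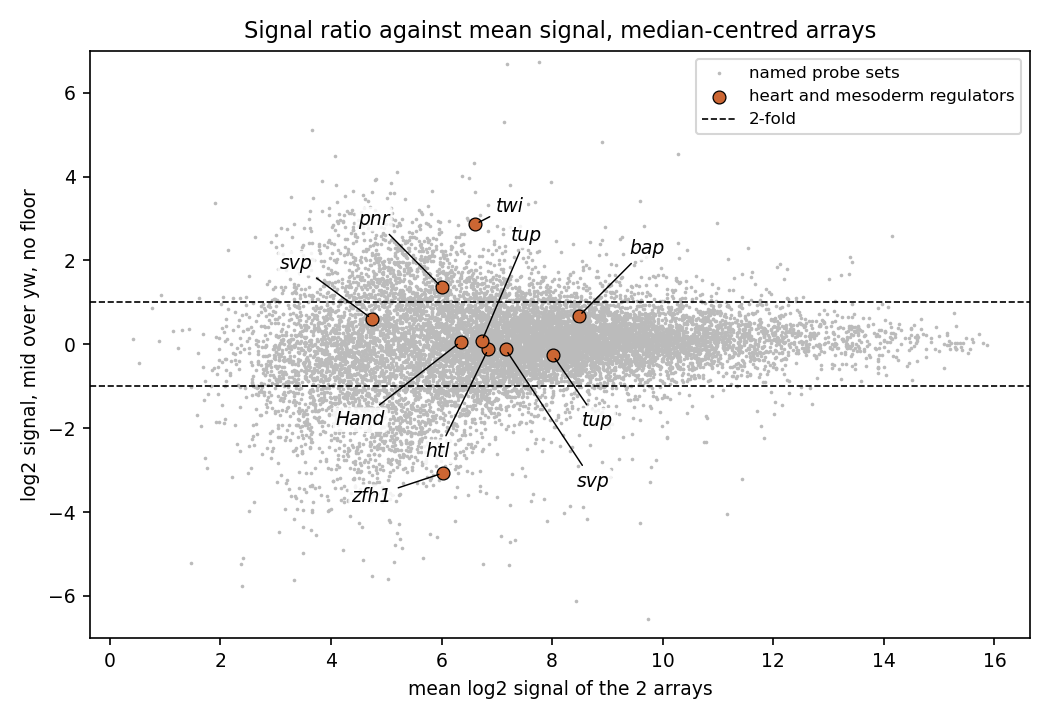
Log2 ratio of *mid* over *yw* without a floor (vertical axis) against the mean log2 signal of both arrays (horizontal axis) for all named probe sets in grey and the 10 probe sets of the heart and mesoderm regulators in orange, with dashed lines at 2-fold. *twi* at 2.87 and *zfh1* at -3.07 lie near the edges of the cloud, in the range of mean signal where the ratios of all genes scatter widely.

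Toward low signal the ratios of all named probe sets fanned out in both directions, and *twi*, *zfh1* and *pnr* lay in that range, while *bap* and the brighter probe set of *tup* lay where the cloud was narrower. Without a floor, 1220 named genes were more than 2-fold higher and 1419 more than 2-fold lower, against 435 and 348 with it.

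**Figure D3:**
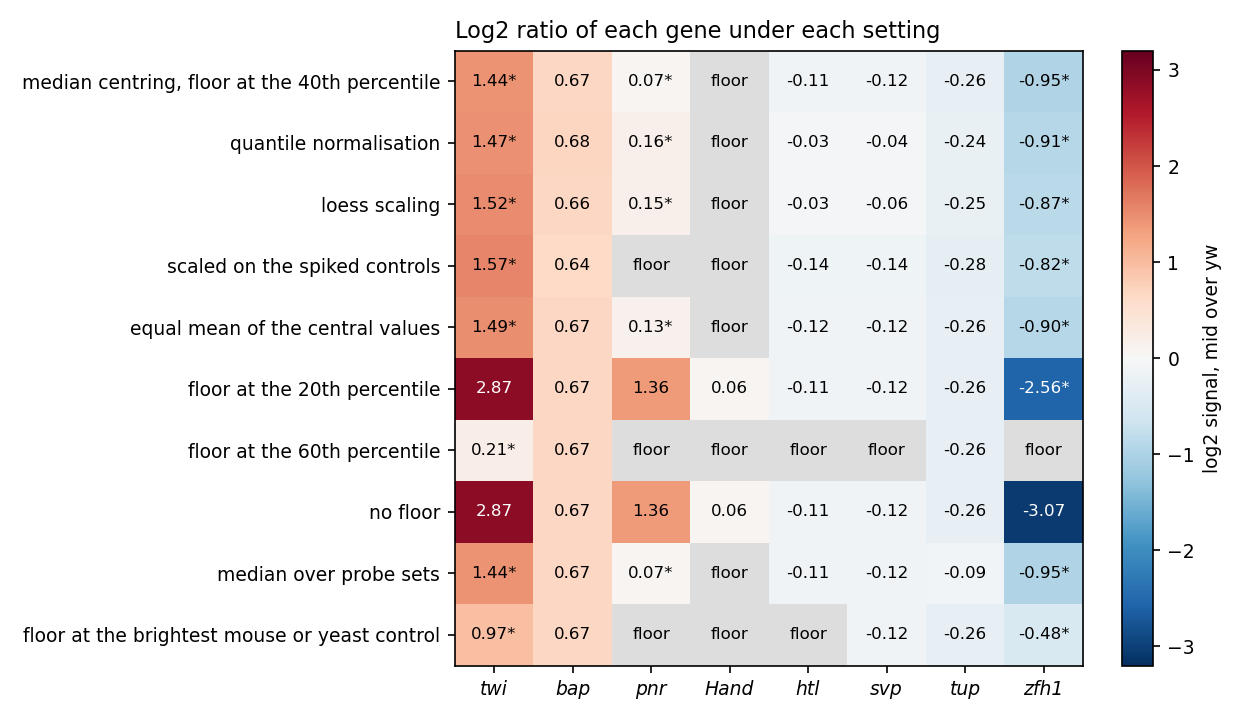
Log2 ratio of *mid* over *yw* for each of the 8 genes (columns) under each scaling and floor other than the values as deposited (rows), with the shift of the median of the measured genes removed for other scalings. A star marks a bound, with 1 array at the floor, and grey cells are genes at the floor on both arrays. *bap* stays between 0.64 and 0.68 in every row shown, whereas *twi* runs from 0.21 to 2.87 and *zfh1* from -0.48 to -3.07 where it is measured. For *bap* this is partly fixed in advance, as both its signals lie above every floor and removing the shift largely undoes a constant factor.

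*bap* belongs to a cluster of NK homeobox genes on chromosome arm 3R, several of which act in mesoderm and muscle. In the RefSeq gene order *tin* and *bap* are adjacent, and *lbl*, *lbe*, *C15* and *slou* follow nearby. Of the 5 genes with a probe set, 4 were measured and none was called in either direction. *slou*, which specifies muscle founder cells, read 202 in *yw* and 269 in *mid* (log2 ratio 0.42). *lbl*, a ladybird gene of heart and muscle cells, read 169 and 150 (log2 ratio -0.18). *C15*, expressed in the amnioserosa and dorsal ectoderm, read 85.5 in *yw*, below the floor, and 176 in *mid*, a bound of 1.8-fold higher. *lbe*, the other ladybird gene, gave no ratio, with 7.44 and 15.9. *C15*, *bap* and *slou* were thus higher in *mid* and *lbl* slightly lower, all by less than 2-fold.

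Other regulators of cardiac cell fate were mostly within 2-fold, 6 of 8 measured genes being above the floor on both arrays and uncalled. The exception was *H15*, the paralog of *mid*, which read 135 in *yw* and 391 in *mid* (2.9-fold higher) and kept this call under every other scaling except the values as deposited, but not with a floor at the 60th percentile (log2 ratio 0.77). *ush*, which encodes a cofactor of Pnr, read 138 and 199 (log2 ratio 0.53). The Dorsocross gene *Doc2*, which encodes a T-box factor, read 148 in *yw* and 73.5 in *mid*, under the floor, a bound of 1.52-fold lower. None of the 8 was called lower, and the median was 0.27, or -0.05 with the spiked controls as the common scale.

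Genes of heart tube assembly and function gave no calls among 9 measured, with a median of 0.29. *prc*, which encodes the collagen-like Pericardin of the heart matrix, read 3394 in *yw* and 4260 in *mid*, far above the floor in both genotypes (chosen after its values were seen). *Tl*, which encodes the Toll receptor, read 820 and 475 (log2 ratio -0.79). *unc-5*, a netrin receptor gene, read 155 and 228 (log2 ratio 0.56), and for *robo1*, a Slit receptor gene, the signals of 51.3 and 157 gave a bound of 1.61-fold higher in *mid*. With the spiked controls as the common scale *Tl* was called lower and the median of the list was -0.04.

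Among early mesoderm genes and the FGF pathway of Htl, 1 of 7 measured genes was called higher and none lower. The median was 0.39, or 0.07 with the spiked controls as the common scale. The gene called was *dl*, which encodes Dorsal, the maternal activator of *twi*, with 296 in *yw* and 630 in *mid* (2.13-fold higher), a call that was lost with loess, with the spiked controls and with an equal mean of the central values. *sna*, which acts with *twi* to set up the mesoderm, read 648 and 532 (log2 ratio -0.28) and did not share the direction of *twi* (chosen after its values were seen). Both arrays were from 16 h after egg laying alone, so neither ratio describes the earlier setting up of the mesoderm. The myogenic gene *nau*, with 63.5 and 173, had a bound of 1.77-fold higher in *mid*, and *sty*, which encodes the FGF antagonist Sprouty, read 426 and 581 (log2 ratio 0.45). *pyr*, which encodes an FGF ligand of Htl, read 384 and 504 (log2 ratio 0.39), while *ths*, which encodes the other ligand, gave no ratio at 19.8 and 84.3. These 2 ligand genes were also named after their values were seen.

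The list for the visceral mesoderm, where *bap* acts, had 4 measured genes, of which 1 was called higher and none lower. Its median was 0.48, or 0.16 with the spiked controls as the common scale. *jeb* encodes the ligand of Alk, a receptor of the visceral mesoderm, and its own transcript need not come from that tissue. *jeb* read 55.0 in *yw* and 197 in *mid*, a bound of 2.02-fold higher. This was no longer a call with the spiked controls or an equal mean of the central values. It was also lost with a floor at the 60th percentile or at the brightest mouse or yeast control. *HLH54F*, required for the longitudinal gut muscles, read 144.5 and 218 (log2 ratio 0.60). *bin*, which encodes the forkhead factor that acts downstream of *bap*, read 390 and 301 (log2 ratio -0.37), opposite in direction to *bap* and within the SD.

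Muscle genes were measured as the differentiated output of the mesoderm. None of 8 measured muscle identity genes was called (median 0.46), but 4 of them had only bounds, with 1 array at the floor. After *nau*, the larger ratios included *ara*, with 142 in *yw* and 210 in *mid*, and *kn*, with 161 and 235. None of 4 measured myoblast fusion genes was called either (median -0.20). Here *sns*, which encodes an adhesion protein of fusion-competent myoblasts, read 305 and 238, *Vrp1* 198 and 156, and *rols* 362 and 421. Of 10 measured sarcomere genes, 2 were called higher and none lower, and all 10 had a ratio above 0 (median 0.39). Over all 7687 measured genes, 4213 had a ratio above 0. With quantile normalisation or loess 8 of the 10 were above 0, and with an equal mean of the central values 7. The 2 called were the titin-family genes *sls*, with 543 in *yw* and 1293 in *mid* (2.38-fold), and *bt*, with 1385 and 2855 (2.06-fold). *bt* was not called with quantile normalisation, loess or an equal mean of the central values. *Prm*, which encodes paramyosin, read 6465 and 9280 (log2 ratio 0.52). With the spiked controls in place of the median as the common scale, where the median of the measured genes shifts by -0.30, *sls* was not called either, 4 of the 10 sarcomere genes were below 0 and the median of the list was 0.06.

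**Figure D4:**
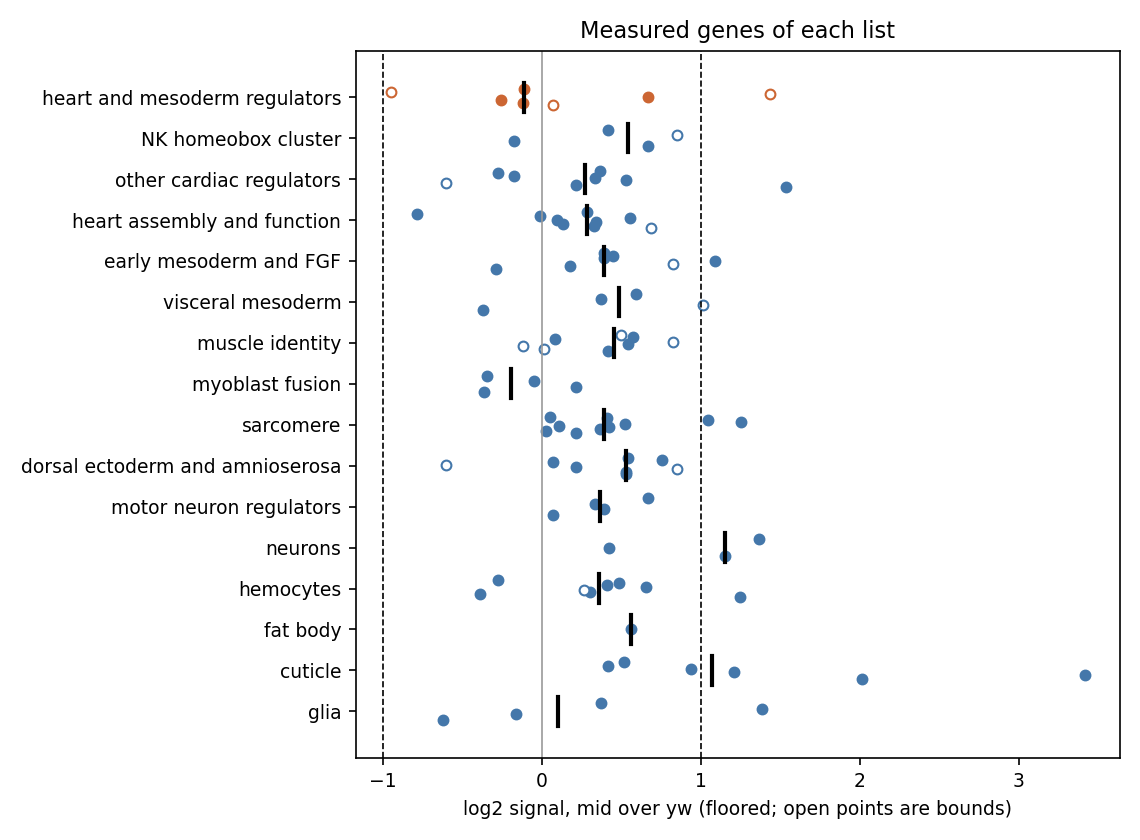
Log2 ratio of *mid* over *yw* for the measured genes of each list, with filled points for genes above the floor on both arrays, open points for bounds, black bars for medians and dashed lines at 2-fold. The heart and mesoderm regulators (orange, median -0.11) spread from -0.95 to 1.44, and 12 of the 15 other lists have medians between 0.1 and 0.6. All list medians are lower with the spiked controls as the common scale, at -0.44 for the regulators.

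The nervous system, blood cells and dorsal ectoderm also express some of the 8 genes, and their lists were read beside them. The neuronal list had 2 of 3 measured genes called higher, *fne* at 2.57-fold and *elav* at 2.23-fold, with *nSyb* at 363 in *yw* and 487 in *mid* (median 1.15). The call of *elav* was lost with the spiked controls and with either of the higher floors. Motor neuron regulators had no call among 4 measured genes (median 0.36, or 0.04 with the spiked controls). *grn* read 337 and 535, *Lim3* 141 and 185 and *eve* 226 and 285, all with ratios above 0 after median centring. Hemocyte genes had 1 call among 8 measured (median 0.36, or 0.07 over 9 measured with the spiked controls). The gene called was the GATA gene *srp*, with 114 in *yw* and 271 in *mid*, not called with the spiked controls or with a floor at the 60th percentile. *Col4a1* read 8764 and 13807, and *Ppn*, by a probe set that may match further transcripts, 1898 and 2662. Dorsal ectoderm and amnioserosa genes had no call among 8 measured (median 0.53), *kay* having the largest ratio above the floor (166 and 280). The part of these tissues in the values of *twi*, *zfh1*, *bap* and *pnr* was not tested.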

How the data were processed

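The authors' deposited values were linear MAS5 signal intensities of 14010 probe sets, 1 array per genotype, per the labels, and no MAS5 version, scaling target or detection call is given in the sources used here. Of the probe sets 12444 had a single symbol in the array's annotation, 327 had several and 1239 had none. List symbols were matched exactly or by a unique exact synonym in a RefSeq gene table. Coordinates are left out, as the sources name no genome build. Arrays were centred on their medians, floored at the 40th percentile of the pooled values and collapsed to the brightest probe set of a gene, and log2 ratios were taken as *mid* over *yw*. Calls used more than 2-fold. The Methods also require a p-value, which 1 array each cannot give. The number of arrays limits the precision. The genes and lists were chosen with earlier results of these data known.

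Named genes were the heart and mesoderm regulators, *mid*, the NK cluster and the 3 measured genes with the largest change of each other list. Scaling and calls were tested on simulated data with changes placed only in bright probe sets, so the test does not cover genes at the floor. Alternatives were the values as deposited, quantile normalisation, loess (span 0.3), the spiked controls, a common mean of the central 96% of values, no floor or a floor at the 20th or 60th percentile, the median over probe sets and folds of 1.5 and 3. The work was done in Python 3.11.15 with pandas 2.3.3 and numpy 2.4.6, with loess from statsmodels 0.14.6 and plots from matplotlib 3.10.9.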

Additional observations from a re-analysis of the deposited data

How the results depend on the processing

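Of the 8 heart and mesoderm regulators, 1 was called higher (*twi*) and 0 lower with median centring, and these counts were unchanged with quantile normalisation, loess and the median over probe sets. At least 1 of the counts moved under each of the other settings. With values as deposited, 0 were higher and 5 lower. Most of the *mid* array is dimmer there, and the median of the measured genes shifts by -1.58. Over all 8438 measured genes, 19 were higher and 6428 lower. With the spiked controls (shift -0.30) and with an equal mean of the central values (shift -0.11), *twi* was still called higher and 1 gene, *zfh1*, was called lower. Over all measured genes, 204 of 7742 were higher and 717 lower with the spiked controls. With the equal mean, 331 of 7700 were higher and 433 lower. With the floor at the 20th percentile, and with no floor, 2 were higher (*twi* and *pnr*) and 1 was lower (*zfh1*). Over all measured genes, 882 of 9634 were higher and 902 lower with the 20th percentile. With no floor, 1220 of 10845 were higher and 1419 lower. With the floor at the 60th percentile 0 were called and 3 were measured. With the floor at the brightest mouse or yeast control, an alternative chosen after seeing the data, 0 were called and 5 were measured. At 1.5-fold 2 regulators were higher (*twi* and *bap*) and 1 lower, and at 3-fold 0 were called. Over all 7687 measured genes, 1284 were higher and 987 lower at 1.5-fold, and 101 and 108 at 3-fold. Calls among the regulators are too few to set against these counts. With the shift of the median of all measured genes removed for other scalings, the median log2 ratio of the measured regulators moved by less than 0.53, the SD between probe sets, ranging from -0.14 to 0.34, so its sign is not settled. Without that removal it was -0.44 with the spiked controls and -1.24 with values as deposited. Of 450 single-gene values under these alternatives, with that shift likewise removed, 429 moved by less than that SD, 21 moved by more, and no called gene changed sign. Many of these values could not move. A gene above every floor is unaffected by the floors, and a single probe set by the median over probe sets. Removing the shift largely undoes a scaling by a constant factor. The count is therefore no measure of robustness, and several calls were lost under these settings, as given above. Dim signal limits *twi*, *zfh1*, *pnr*, *Hand*, *htl* and *svp* most, whose signals lie under or near the mouse and yeast controls on at least 1 array.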

Other observations

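Lists of tissues outside the mesoderm were also read. Of 6 measured cuticle genes, 3 were called higher in *mid* and none lower (median 1.07), namely the Tweedle gene *TwdlD* (237 in *yw* and 2528 in *mid*), *Edg91* (390 and 1576) and the chitin deacetylase gene *serp* (1110 and 2559), the last of which was not called with the spiked controls as the common scale. Of 4 measured glial genes, 1 was called higher, *Gli*, which encodes Gliotactin of the septate junctions (321 and 838), while *repo*, the regulator of glial fate, read 357 and 232 and *loco* 479 and 619 (median 0.10, or -0.22 with the spiked controls). Of the fat body genes *apolpp* alone was measured, with 5443 and 8047, and 3 were at the floor on both arrays.

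The ratio of 3′ to 5′ signal of control transcripts, which rises as RNA degrades, was 28.8 in *yw* and 53.5 in *mid* for actin, 50.8 and 63.3 for eIF-4a, 4.52 and 7.43 for 18S rRNA, and 21.6 and 17.3 for GAPDH, so it was higher in *mid* for 3 of 4 controls. For actin, eIF-4a and GAPDH the ratio lay between 17.3 and 63.3 over both arrays, so 3′ signal far exceeded 5′ signal in both genotypes. The part of RNA degradation in the values of *twi*, *zfh1* and the other genes named here, *sls* and *bt* included, was not tested.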
